A study of Mus musculus with 28 samples.

Results

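The AP-1 transcription factor genes were examined through the chromatin around them: 10 genes, Fos, Fosb, Fosl2, Jun, Junb, Jund, Batf, Batf3, Atf3 and Maff. A peak was taken as one of theirs when the nearest protein-coding gene body within 50 kb, among 21896 on mm10, was one of the 10. By this rule 85 of 63313 peaks of histone H3 lysine 27 acetylation (H3K27ac, a mark of active promoters and enhancers) and 9 of 8394 peaks of the glucocorticoid receptor (GR) belonged to them. The H3K27ac peaks were 18 at Fos, 6 at Fosb, 11 at Fosl2, 8 at Jun, 1 at Junb, 3 at Jund, 12 at Batf, 11 at Batf3, 12 at Atf3 and 3 at Maff. The GR peaks were 5 at Fos, 2 at Atf3, 1 at Fosl2 and 1 at Batf. No GR peak was assigned to Fosb, Jun, Junb, Jund, Batf3 or Maff.

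Marrow from femurs and tibiae of C57BL/6 mice, all male and 8 to 10 weeks old, was cultured for 5 days with medium conditioned by L cells, which supplies macrophage growth factor, to give primary macrophages. The treatments were vehicle, 500 nM corticosterone (Cort, the glucocorticoid that mice make themselves), 100 nM dexamethasone (Dex, its longer-acting synthetic relative) and 10 ng/ml of the cytokine interleukin 4 (IL4), which acts through STAT6, with 24 h given for the 3 agents. Chromatin immunoprecipitation sequencing yielded 3 H3K27ac libraries in every group. For GR there were 3 IL4 libraries and 4 in every other group. The titles of the H3K27ac vehicle libraries give no time, and the labels do not say whether replicates came from separate mice, so p-values measure the spread between libraries. GR libraries came in 2 batches named in the titles, with the IL4 libraries all in batch 2. Both steroids were compared with the same vehicle libraries as IL4, and their doses differed. In bulk chromatin, less signal per cell and fewer cells carrying it cannot be told apart.

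AP-1 is a dimer of basic leucine zipper proteins. Fos proteins pair with Jun proteins and bind the letters TGANTCA, while Jun and ATF proteins can also bind the longer cyclic AMP response element TGACGTCA. Fos and Jun are immediate early genes, induced within minutes by growth factors and stress through MAP kinases, and in macrophages AP-1 marks many enhancers beside PU.1. Batf and Batf3 lack a transactivation domain and bind with Jun partners and with IRF4 or IRF8. Atf3 is a stress-induced repressor of inflammatory genes, and Maff is a small Maf protein without a transactivation domain. GR binds its own palindromic element and is also known to interact with AP-1.

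To show the sequence at the starts, the 150 bases before the RefSeq start (build GRCm38.p6) are given for 5 genes, 5′ to 3′ on the gene's strand. Capitals mark the searched motif that was found, and Batf3 held none of them. These genes were chosen because Fos and Jun are the founding members, Atf3 and Batf3 have the start-site peaks that changed most with IL4, and Jund has the one match to the glucocorticoid response element. That match lies under no H3K27ac peak, between those that end at 70697649 and begin at 70697790.
Fos: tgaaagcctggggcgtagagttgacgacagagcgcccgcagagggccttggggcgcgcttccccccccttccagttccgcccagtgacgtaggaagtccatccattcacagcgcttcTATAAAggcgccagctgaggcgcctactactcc
Jun: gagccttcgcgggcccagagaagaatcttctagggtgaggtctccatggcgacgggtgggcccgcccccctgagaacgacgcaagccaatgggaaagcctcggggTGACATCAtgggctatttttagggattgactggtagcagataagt
Jund: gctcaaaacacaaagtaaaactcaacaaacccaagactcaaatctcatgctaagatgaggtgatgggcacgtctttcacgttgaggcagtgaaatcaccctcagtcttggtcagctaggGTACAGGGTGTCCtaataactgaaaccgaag
Atf3: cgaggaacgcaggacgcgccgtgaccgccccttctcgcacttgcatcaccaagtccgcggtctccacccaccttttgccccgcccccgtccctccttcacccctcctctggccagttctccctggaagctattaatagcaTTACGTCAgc
Batf3: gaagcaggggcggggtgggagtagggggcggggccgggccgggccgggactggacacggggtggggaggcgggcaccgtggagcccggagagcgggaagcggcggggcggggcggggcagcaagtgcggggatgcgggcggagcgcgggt
The windows lie at chr12:85473740-85473889 on the plus strand (Fos), chr4:95052223-95052372 on the minus strand (Jun), chr8:70697589-70697738 on the plus strand (Jund), chr1:191183334-191183483 on the minus strand (Atf3) and chr1:191098264-191098413 on the plus strand (Batf3). All 10 genes had a window, 12 in all. Both strands were searched for TGANTCA, TGACGTCA, its variants TGACATCA and TTACGTCA, the STAT6 site (TTC and GAA with 4 bases between), the glucocorticoid response element (GNACA and TGTNC with 3 bases between) and the TATA box TATAAA, and no match overlapped another. TATAAA begins 33 bases before the Fos start, TGACATCA 45 bases before the Jun start, TTACGTCA 10 bases before the Atf3 start and the 13 letters in capitals 31 bases before the Jund start. Of the 3 Maff windows, 1 held TGACGTCA and 1 held TGACATCA. Among 32817 windows of the same length, 4.24% held TGANTCA, 1.36% TGACGTCA, 2.32% TGACATCA, 0.366% TTACGTCA, 3.17% the STAT6 letters, 0.171% the glucocorticoid letters and 7.58% TATAAA. The GC content was 81.3% at Batf3, 62.7% at Fos and at Atf3, 58.0% at Jun and 45.3% at Jund, against a median of 54.0% over all windows.

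In vehicle, H3K27ac at the 10 genes spanned a wide range. On the scale of scaled counts per 1e6 counts in peaks (CPM) per kb of peak, the strongest peak overlapping each gene or within 1 kb of it stood at 31.7 ± 3.89 (SD, n = 3) for Junb, 24.3 ± 1.70 for Jun, 21.9 ± 7.41 for Batf and 21.3 ± 3.69 for Jund. Next came Fosl2 at 16.6 ± 1.28, Fos at 16.2 ± 2.75, Batf3 at 15.6 ± 3.24 and Atf3 at 13.0 ± 1.48. Fosb at 7.22 ± 1.46 and Maff at 6.19 ± 0.176 were lowest. In this order the mean of Junb exceeded that of Jun, that of Jund exceeded Fosl2 and that of Atf3 exceeded Fosb by more than the larger SD, and the other neighbours differed by less. The Junb peak also overlaps Prdx2 and the Jund peak overlaps Iqcn, so their signal cannot be given to 1 gene.

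Counts in peaks ranged from 6829787 to 15695771 per H3K27ac library and from 900063 to 1981582 per GR library. In the GR libraries 1 peak alone held 45.4% to 59.2% of them, and scaling factors ran from 0.392 in vehicle replicate 4 to 1.721. Cort replicate 4 stood apart with 415731 counts outside the top 1% of peaks by reads, against 55958 to 145518 in the others. As a check of the labels, 33 of 59 tested H3K27ac peaks of the glucocorticoid targets Fkbp5, Tsc22d3, Klf9, Zbtb16 and Per1 rose with Cort and 40 with Dex, and 17 of 43 of the IL4 targets Arg1, Retnla, Chil3, Mrc1 and Cish rose with IL4. All 8 macrophage marker genes carried an H3K27ac peak that overlapped the gene, against 0 of 5 fibroblast and 0 of 4 mast cell or basophil genes. The neutrophil list lacked one at Elane and Mpo, the lymphoid list at Cd3e and Cd3g, the erythroid and megakaryocyte list at Gata1 and Hbb-bs and the dendritic list at Siglech.

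Fewer AP-1 peaks were called with either steroid than with IL4. Of the 85 H3K27ac peaks 82 passed the low-count filter and were tested. With Cort 2 were higher, where 1.18% of all tested peaks were, and 0 were lower, where 0.376% were. With Dex 4 were higher and 1 lower, against 2.90% and 2.34% of all peaks. In either direction Cort called 2.44% of the AP-1 peaks and 1.55% of all, and Dex 6.1% and 5.24%. Without a term for the replicate number, the steroid shares in either direction thus lay near those of all peaks. With IL4 27 were higher and 7 lower, against 14.7% and 12.9%. The IL4 gains thus made up 32.9% of the tested AP-1 peaks. Of these gains 10 were at Batf3 and 5 at Atf3, which lie near each other on chromosome 1, so they are not spread evenly over the 10 genes. The median log2 fold change of the tested AP-1 peaks with IL4 was 0.42, against -0.02 over all peaks. With Cort that median was 0.08 and with Dex 0.00, against 0.00 and 0.01. Same-numbered H3K27ac libraries varied together, so the replicate number was also fitted as a block. Of the 82 tested AP-1 peaks Cort then had 11 higher and 2 lower (6.44% and 6.13% of all peaks), Dex 13 and 6 (9.91% and 10.3%) and IL4 36 and 13 (21.9% and 21.6%). With each agent the blocked gains were a larger share of the AP-1 peaks than of all peaks, and the losses a smaller one.

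**Figure D1:**
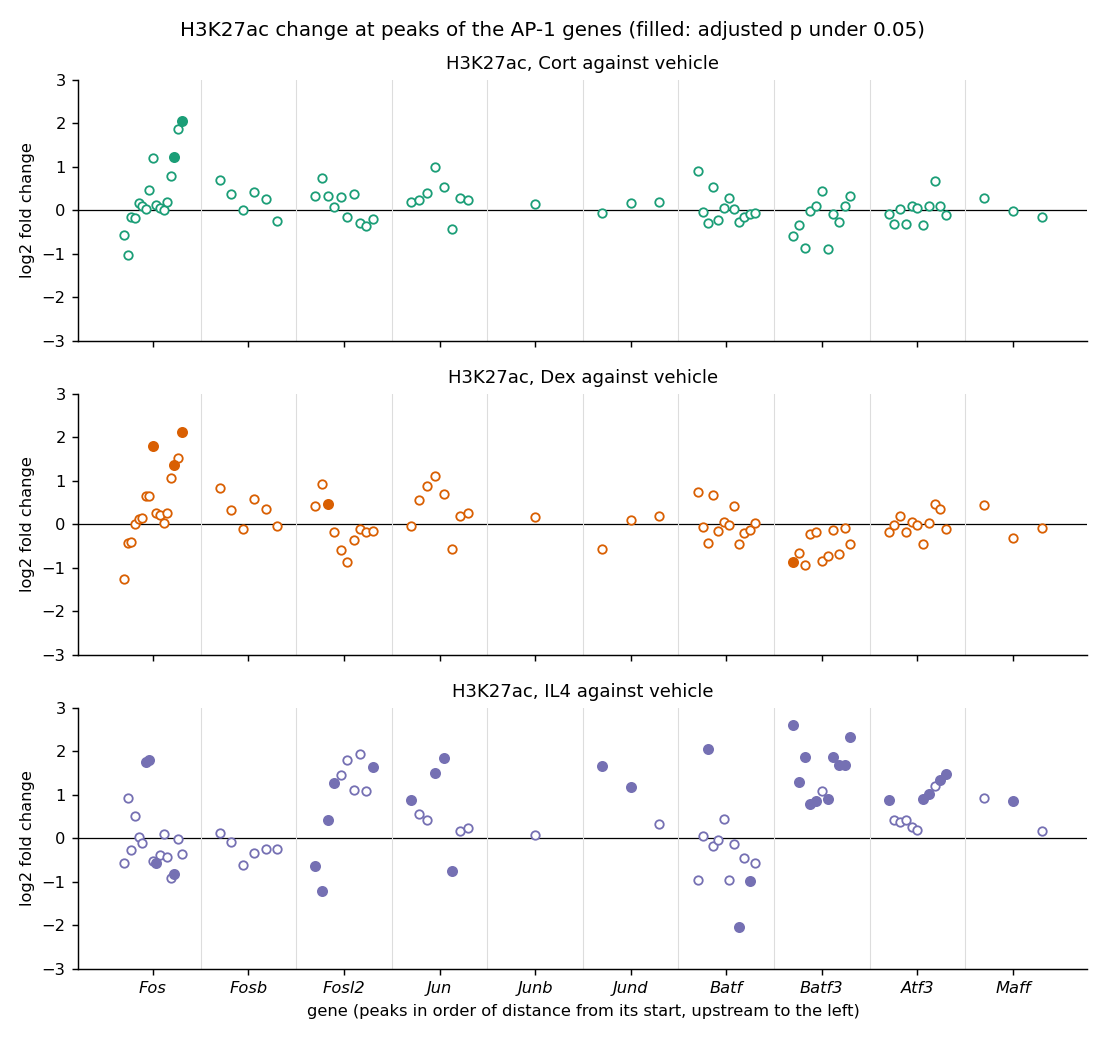
Log2 fold change of H3K27ac against vehicle (vertical axes) at each tested peak of the 10 genes (horizontal axis), for Cort, Dex and IL4, with called peaks filled. With Cort the 2 filled points are at Fos, and with IL4 10 of the 11 Batf3 peaks are filled and above 0.

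Fos, the partner of Jun that cannot form dimers with itself, gained H3K27ac with both steroids at distal peaks while the peak over its start site was not called. The peak chr12:85522225-85525505, whose midpoint lies 49.98 kb downstream of the Fos start, had 18.2, 16.8 and 20.9 CPM in vehicle, 76.4, 83.0 and 72.6 with Cort, 67.5, 103 and 74.8 with Dex and 14.9, 14.3 and 14.8 with IL4. Every steroid library stood above every vehicle library, and every IL4 library below. The ratio of means was 4.15 for Cort (log2 fold change 2.05, SE 0.16, adjusted p = 3.31e-05) and 4.39 for Dex (2.13, SE 0.16, adjusted p = 1.67e-05). IL4 gave -0.35 (SE 0.16, adjusted p = 0.133, and 0.0441 with the replicate block). Its signal per kb, 5.68 ± 0.637 in vehicle, reached 23.6 ± 1.61 with Cort and 24.9 ± 5.75 with Dex, above the 16.2 ± 2.75 of the Fos start-site peak in vehicle.

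A neighbouring peak, chr12:85517445-85520559 at 45.11 kb, behaved alike. It had 26, 13.1 and 24.9 CPM in vehicle, 53.7, 45.7 and 50.9 with Cort, 58.4, 53.9 and 53.1 with Dex and 12.4, 10.2 and 13.6 with IL4. The steroid libraries lay above all vehicle libraries, while the IL4 range overlapped the lowest vehicle library. The log2 fold changes were 1.23 for Cort (SE 0.22, adjusted p = 0.0112), 1.37 for Dex (SE 0.22, adjusted p = 0.00284) and -0.82 for IL4 (SE 0.22, adjusted p = 0.0139). The Cort call ended without Cort replicate 1 (adjusted p = 0.0514) and in a fit of Cort and vehicle alone (0.0617), and the IL4 call ended without vehicle replicate 1 (0.067), vehicle replicate 3 (0.0747) or IL4 replicate 2 (0.0576). A small peak between them, chr12:85521499-85521792, had log2 fold changes of 1.86 with Cort (SE 0.45, adjusted p = 0.0603, and 0.0107 with the block) and 1.53 with Dex (SE 0.46, adjusted p = 0.0726, and 0.0317 with the block). These peaks lie over 40 kb past the end of Fos, and with noncoding genes included the nearest gene is Gm32296, at 4046 bp from the peak at 49.98 kb.

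Upstream of Fos, a weak H3K27ac peak that also holds a GR peak rose with Dex. The peak chr12:85464047-85465631, at -9.05 kb, had 3.71, 1.72 and 1.80 CPM in vehicle, 5.67, 6.13 and 4.15 with Cort, 8.69, 8.60 and 7.09 with Dex and 2.22, 2.03 and 0.745 with IL4. All steroid libraries were above all vehicle libraries. With noncoding genes included, the nearest gene is Gm38543, at 6899 bp, against 8259 bp to Fos. The Dex change was 1.79 (SE 0.36, adjusted p = 0.0128), lost without vehicle replicate 2 (0.0667) or replicate 3 (0.0753), and the Cort change was 1.19 (SE 0.37, adjusted p = 0.146, and 0.00279 with the block).

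IL4 moved other upstream Fos peaks, in both directions. The adjoining peaks chr12:85462602-85463551 and chr12:85461958-85462419, at -10.81 and -11.70 kb, rose with IL4 by 1.79 (SE 0.40, adjusted p = 0.00464) and 1.75 (SE 0.52, adjusted p = 0.023) on the log2 scale. Both lie nearer the noncoding gene Gm38543 than Fos. The former had 1.86, 1.15 and 1.18 CPM in vehicle and 5.18, 3.65 and 5.35 with IL4, with no overlap. The latter lost its call without vehicle replicate 2 (0.0936), vehicle replicate 3 (0.0674), IL4 replicate 1 (0.0522) or IL4 replicate 3 (0.088). The strong peak chr12:85467733-85470402 at -4.82 kb fell with IL4, from 64.8, 52.1 and 59.8 CPM to 38.0, 42.1 and 38.8, a log2 fold change of -0.57 (SE 0.14, adjusted p = 0.00734). No IL4 library reached the lowest vehicle library there, and Cort (0.13) and Dex (0.25) were not called.

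The Fos start-site peak, chr12:85471338-85477723, spans the whole gene. It had 121, 85.8 and 104 CPM in vehicle, 117, 106 and 96.1 with Cort, 122, 152 and 88.4 with Dex and 77.6, 84.8 and 77.1 with IL4. The steroid ranges overlapped that of vehicle, and the IL4 libraries lay just below it. Log2 fold changes were 0.04 (SE 0.18, adjusted p = 0.963), 0.22 (SE 0.18, adjusted p = 0.558) and -0.38 (SE 0.18, adjusted p = 0.143, and 0.0226 with the block). The strongest Fos peak, chr12:85485550-85492444 at 15.11 kb, was level in all groups, with means of 204 ± 22.1, 205 ± 38.0, 206 ± 57.9 and 219 ± 9.64 CPM (SD, n = 3) for vehicle, Cort, Dex and IL4.

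**Figure D2:**
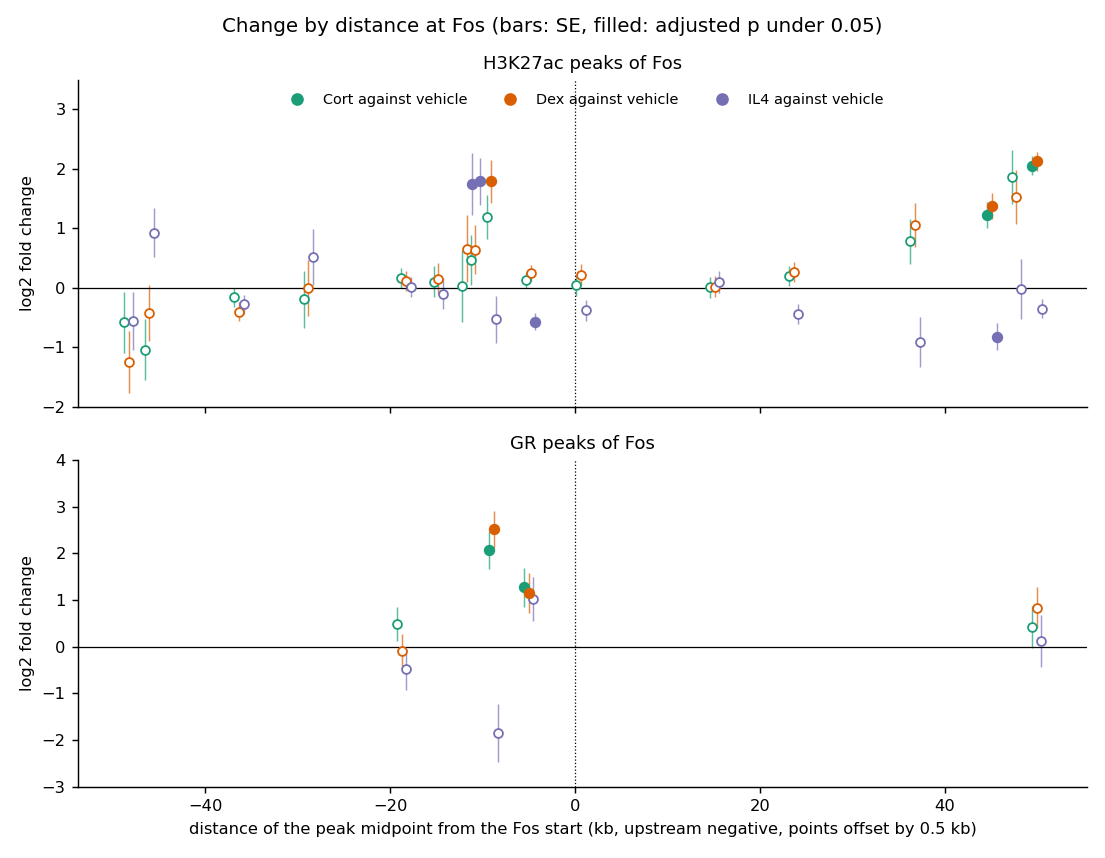
Log2 fold change against vehicle with its SE (vertical axes) by distance of the peak midpoint from the Fos start in kb (horizontal axis), for H3K27ac above and GR below, with called peaks filled. For H3K27ac the called steroid gains are at -9.05, 45.11 and 49.98 kb, and for GR at -8.82 and -5 kb.

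GR itself gained signal at 2 of the Fos peaks with either steroid. Of the 9 GR peaks 8 were tested, and the one left out, the Fos peak chr12:85468682-85468772, had 4 to 8 counts in vehicle, 3 to 5 with Cort, 2 to 10 with Dex and 4 to 10 with IL4. With Cort 2 were higher, where 12.8% of all GR peaks were, and 0 lower, where 14.8% were (27.6% in either direction). With Dex 2 were higher and 0 lower, against 14.7% and 15.6% (30.3% in either direction). With IL4 edgeR called 0 of 8, 4 had an unadjusted p under 0.05, and DESeq2 called 0 too, beside 0% of all GR peaks called by edgeR.

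The GR peak chr12:85464963-85465184, at -8.82 kb, lies inside the H3K27ac peak at -9.05 kb. With noncoding genes included, the nearest gene to this GR peak is Gm38543, at 7815 bp, against 8706 bp to Fos. Its raw counts were 1, 2, 6 and 3 in vehicle, 21, 15, 25 and 33 with Cort, 31, 22, 32 and 40 with Dex and 2, 0 and 2 with IL4. All steroid libraries exceeded all others. In CPM the means were 2.83 ± 1.21 in vehicle (SD, n = 4), 12.5 ± 4.94 with Cort (n = 4), 16.4 ± 3.89 with Dex (n = 4) and 0.957 ± 0.832 with IL4 (n = 3). The log2 fold changes were 2.07 for Cort (SE 0.40, adjusted p = 0.00311), 2.51 for Dex (SE 0.40, adjusted p = 0.000542) and -1.85 for IL4 (SE 0.62, adjusted p = 0.41). Within batch 1 they were 2.29 for Cort (adjusted p = 0.0211) and 2.94 for Dex (0.00229), and within batch 2, 1.97 (0.148) and 2.24 (0.123). Batch 2 alone called 0 of all GR peaks with either steroid. Without Cort replicate 4 the Cort change was 1.88 (0.00309), and without vehicle replicate 4 the changes were 2.23 (0.00606) and 2.66 (0.00129).

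The other called Fos GR peak rested on fewer reads. It is chr12:85468786-85468984, at -5 kb, with 4, 4, 6 and 2 counts in vehicle, 14, 18, 16 and 28 with Cort, 17, 18, 10 and 26 with Dex and 7, 18 and 13 with IL4. The log2 fold changes were 1.27 for Cort (SE 0.42, adjusted p = 0.0347), 1.15 for Dex (SE 0.42, adjusted p = 0.0493) and 1.02 for IL4 (SE 0.47, adjusted p = 0.417). After scaling, the steroid libraries were above all vehicle libraries by small margins. Both calls ended with median-of-ratios scaling (0.0568 and 0.0734) and with DESeq2 (0.0591 and 0.0816), and without vehicle replicates 2 (0.0629 and 0.0804), 3 (0.0707 and 0.0952) or 4 (0.0697 and 0.0878). That of Cort also ended without Cort replicate 2 (0.0581) or 4 (0.118), and that of Dex without a batch term (0.0523) and without Dex replicate 1 (0.0906), 2 (0.0794) or 4 (0.134). Within batches the changes were 0.74 and 1.78 for Cort and 0.95 and 1.42 for Dex, for batch 1 and batch 2, none called. A GR peak at 49.97 kb, chr12:85523775-85523952, inside the H3K27ac peak with the strong steroid gain, had log2 fold changes of 0.43 with Cort (SE 0.45, adjusted p = 0.473) and 0.83 with Dex (SE 0.44, adjusted p = 0.172). Its counts, 6, 6, 5 and 1 in vehicle, 22, 9, 8 and 11 with Cort and 13, 15, 18 and 17 with Dex, left a wide error. The GR peak at -18.75 kb had 0.49 and -0.09, also not called, and the sign of the latter changed with the processing (0.90 with total-count scaling, among others).

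**Figure D3:**
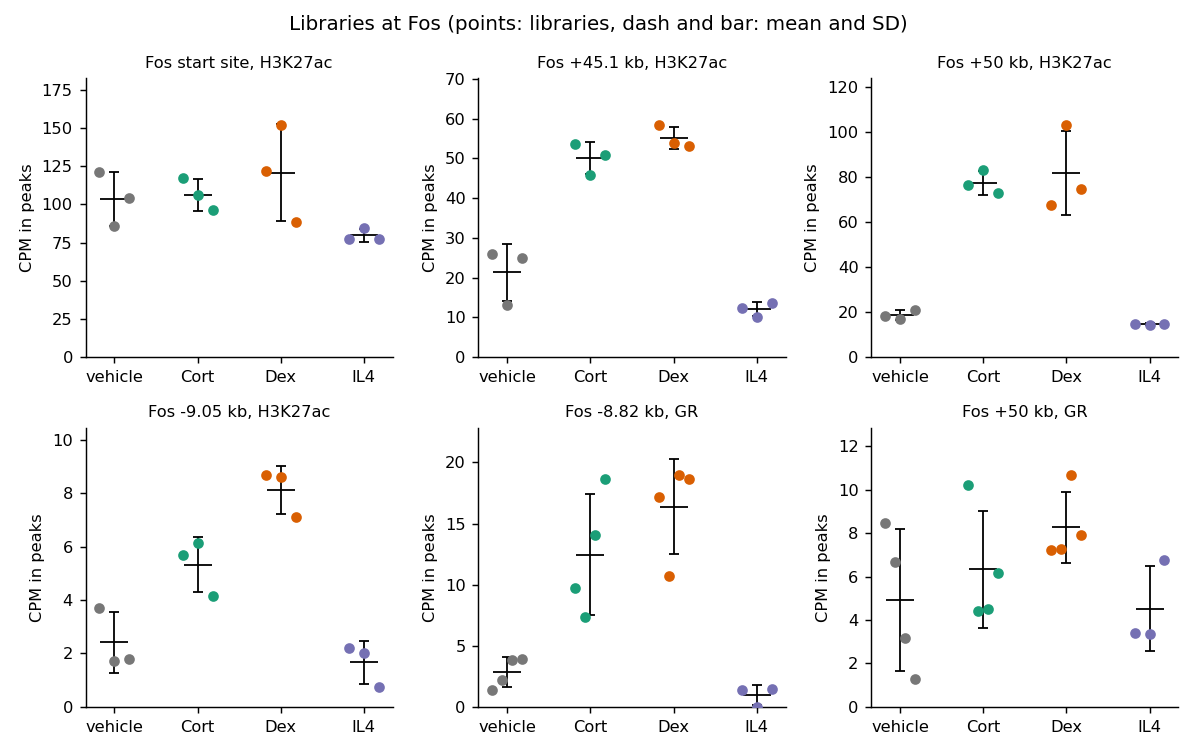
CPM in peaks (vertical axes) for each library of the 4 treatment groups (horizontal axes) at 4 H3K27ac and 2 GR peaks of Fos, with the mean and SD. The vehicle and IL4 points lie below all Cort and Dex points at the H3K27ac peaks at 45.1, 50.0 and -9.05 kb and the GR peak at -8.82 kb, and the vehicle points overlap them at the start site.

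Fosb and Fosl2, which encode relatives of Fos, differed in their response. None of the 6 Fosb peaks was called by edgeR with any treatment, 1 had an unadjusted p under 0.05 with each, and DESeq2 called 1 with Dex. Its strongest gene peak, chr7:19308100-19309119, had 7.36 ± 1.49 CPM in vehicle, 8.71 ± 0.530 with Cort, 9.37 ± 0.0486 with Dex and 6.12 ± 0.803 with IL4 (SD, n = 3), and the Dex libraries lay above those of vehicle. With the block, the peak chr7:19319734-19320668 at -10.08 kb was higher with Cort (0.69, SE 0.24, adjusted p = 0.205, blocked 0.034) and Dex (0.84, SE 0.24, adjusted p = 0.0607, blocked 0.00633).

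At Fosl2 the start-site peak, chr5:32133085-32140406, had 130, 124 and 112 CPM in vehicle, 161, 138 and 162 with Cort, 172, 183 and 150 with Dex and 163, 163 and 164 with IL4. Every treated library was above every vehicle library. The rise was called with Dex (0.47, SE 0.12, adjusted p = 0.0335) and IL4 (0.42, SE 0.12, adjusted p = 0.0154), and Cort gave 0.33 (SE 0.12, adjusted p = 0.2, and 0.0147 with the block). The Dex call ended with total-count scaling (0.0657), in a fit of Dex and vehicle alone (0.0879), and without vehicle replicate 2 (0.1) or 3 (0.137) or Dex replicate 1 (0.106) or 2 (0.0703), and the IL4 call without vehicle replicate 3 (0.0629).

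Around that promoter the Fosl2 peaks went apart. The peak chr5:32191536-32197912, at 58.25 kb, rose with IL4 from 48.5, 45.6 and 36.5 to 140, 128 and 138 CPM, a ratio of 3.11 (log2 1.64, SE 0.18, adjusted p = 4.69e-05), and its nearest gene of any kind is Gm9555. An intronic or exonic position was not resolved for chr5:32149472-32150306, inside the gene at 13.42 kb, which rose by 1.27 (SE 0.28, adjusted p = 0.00475). Upstream, chr5:32121793-32122928 at -14.11 kb had 7.80, 5.24 and 5.27 CPM in vehicle, 13.5, 9.62 and 7.29 with Cort, 14.7, 11.8 and 8.19 with Dex and 2.83, 2.59 and 2.44 with IL4. It fell with IL4 (-1.21, SE 0.29, adjusted p = 0.00763), and its steroid values were 0.74 for Cort (SE 0.27, adjusted p = 0.235, and 0.00842 with the block) and 0.93 for Dex (SE 0.27, adjusted p = 0.0664, and 0.00048 with the block). A stronger peak, chr5:32111638-32113558 at -23.87 kb, fell with IL4 too (-0.63, SE 0.16, adjusted p = 0.00873, and 0.0506 without vehicle replicate 3) and had 0.33 with Cort (adjusted p = 0.363, blocked 0.0478) and 0.43 with Dex (adjusted p = 0.126, blocked 0.00562). With noncoding genes included, the peak at -14.11 kb overlaps Gm36665 and that at -23.87 kb is nearest to Gm36665.

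Among the Jun family, which supplies the obligate partners of Fos and Batf proteins, the gene peaks were strong and changed little. The Jun peak chr4:95048806-95055577, which spans the gene, had 159, 178 and 157 CPM in vehicle, 200, 184 and 200 with Cort, 197, 198 and 192 with Dex and 188, 188 and 202 with IL4. All treated libraries lay above those of vehicle, by log2 fold changes of 0.24, 0.25 and 0.23 (SE 0.10 each). None was called, at adjusted p = 0.287, 0.173 and 0.104, and all were with the block, at 0.0467, 0.0262 and 0.022. The Junb peak chr8:84973882-84986977, the strongest of all per kb, had 415 ± 50.9, 456 ± 38.9, 467 ± 93.7 and 435 ± 36.0 CPM for vehicle, Cort, Dex and IL4 (SD, n = 3) and was not called in either fit.

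IL4 changed distal Jun peaks and the peaks before Jund. Within the noncoding gene Junos, next to Jun, chr4:95093437-95094222 at -41.61 kb went from 1.98, 0.573 and 1.24 to 6.04, 3.4 and 3.86 CPM (1.84, SE 0.42, adjusted p = 0.00591), and chr4:95094284-95095471 at -42.66 kb rose by 1.5 (SE 0.46, adjusted p = 0.0259). The larger peak chr4:95098955-95102526 at -48.52 kb rose by 0.88 (SE 0.24, adjusted p = 0.0142), and chr4:95088256-95090333 at -37.07 kb fell by 0.76 on the log2 scale (SE 0.25, adjusted p = 0.0364). These weaker Jun calls depended on single libraries. The call at -42.66 kb ended without vehicle replicate 2 (0.0979) or 3 (0.0674) or IL4 replicate 1 (0.1) or 3 (0.0645). That at -37.07 kb ended without vehicle replicate 1 (0.105) or 3 (0.155) or IL4 replicate 2 (0.125) or 3 (0.122), and that at -48.52 kb without IL4 replicate 3 (0.0628). With the block, the peak at -42.66 kb was also higher with Cort (1.00, SE 0.46, adjusted p = 0.366, blocked 0.00598) and Dex (1.11, SE 0.46, adjusted p = 0.196, blocked 0.00052).

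Jund, often the most steadily expressed of the Jun genes, gained acetylation before its start. The peak chr8:70694808-70697649, at -1.51 kb and overlapping the printed window, had 18.2, 17.4 and 15.9 CPM in vehicle and 39.1, 40.2 and 36.8 with IL4, a ratio of 2.25 (log2 1.17, SE 0.14, adjusted p = 6.07e-05). The IL4 and vehicle libraries were far apart, and Cort (0.17, SE 0.14) and Dex (0.10, SE 0.14) were not called. Farther out, chr8:70693409-70694413 rose by 1.66 (SE 0.43, adjusted p = 0.0109, and 0.0539 without vehicle replicate 3). The gene peak chr8:70697790-70701364 had 76.1 ± 13.2 CPM in vehicle and 95.4 ± 5.05 with IL4 (0.33, SE 0.13, adjusted p = 0.0906, and 0.0111 with the block).

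Batf3, which pairs with Jun proteins, had nearly all its peaks higher with IL4. With IL4 10 of its 11 peaks rose, by log2 fold changes between 0.80 and 2.61, and the eleventh had 1.08 (SE 0.52, adjusted p = 0.145). At chr1:191092428-191094924, -4.74 kb, vehicle had 4.95, 5.00 and 3.60 CPM, Cort 2.69, 2.86 and 3.37, Dex 2.20, 2.89 and 2.27 and IL4 27.4, 24.3 and 30.6. The IL4 libraries were far above and all steroid libraries below those of vehicle. IL4 gave a ratio of 6.07 (log2 2.61, SE 0.20, adjusted p = 2.83e-06), and Dex a log2 fold change of -0.86 (SE 0.21, adjusted p = 0.0336). The Dex call ended in a fit of Dex and vehicle alone (0.117) and without vehicle replicate 1 (0.0933) or 2 (0.0996) or Dex replicate 1 (0.12) or 3 (0.138). Cort gave -0.59 (SE 0.21, adjusted p = 0.22, and 0.0973 with the block).

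The Batf3 start-site peak, chr1:191096039-191099171, had 5.94, 12 and 5.64 CPM in vehicle, 4.96, 5.37 and 2.47 with Cort, 4.40, 3.86 and 4.09 with Dex and 28.7, 27.6 and 30.4 with IL4. IL4 again stood apart above, and every steroid library below every vehicle library. The values were 1.87 for IL4 (SE 0.29, adjusted p = 0.000515), -0.88 for Cort (SE 0.31, adjusted p = 0.216, and 0.0203 with the block) and -0.94 for Dex (SE 0.31, adjusted p = 0.102, and 0.00887 with the block). Downstream of the gene, chr1:191122117-191126680 at 25.98 kb rose with IL4 by 1.87 (SE 0.16, adjusted p = 6.57e-06), from 20.9 ± 2.81 to 76.5 ± 7.49 CPM (SD, n = 3). The strongest peak, chr1:191108979-191112922, rose by 0.80 (SE 0.14, adjusted p = 0.0011), and chr1:191131196-191132598 at 33.48 kb by 1.69 (SE 0.32, adjusted p = 0.00161). At chr1:191118782-191120056, 21.00 kb, IL4 gave 0.91 (SE 0.22, adjusted p = 0.00715) and the steroids -0.90 (Cort, SE 0.23, adjusted p = 0.0774, blocked 0.0018) and -0.74 (Dex, SE 0.23, adjusted p = 0.079, blocked 0.00391). With noncoding genes included, the peaks at 25.98 and 33.48 kb overlap Gm46178 and Gm31640, and that at 21.00 kb is nearest to Gm46178. Batf3 is best known from dendritic cells, so the peaks of the dendritic list (Flt3, Zbtb46, Xcr1, Siglech) were read beside it. Their summed level was 315 to 466 CPM in vehicle and 194 to 264 with IL4, with 2 of 18 tested peaks higher and 8 lower.

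Atf3 lies close to Batf3 on chromosome 1 and also gained with IL4 over its start. Batf3 ends at 191108943 and the Atf3 span begins at 191170296, so their gains fall in 1 region. Its start-site peak, chr1:191174307-191187767, had 162, 198 and 164 CPM in vehicle, 163, 201 and 197 with Cort, 158, 206 and 166 with Dex and 345, 343 and 381 with IL4. The steroid ranges overlapped that of vehicle and the IL4 libraries lay above all others. The IL4 ratio was 2.04 (log2 1.03, SE 0.13, adjusted p = 0.000145), beside 0.10 for Cort and 0.02 for Dex (SE 0.13 each). Over the end of the gene, chr1:191165840-191171916 rose by 1.49 (SE 0.16, adjusted p = 4.42e-05), and chr1:191172318-191173732 inside it by 1.34 (SE 0.27, adjusted p = 0.0027). Upstream, chr1:191188892-191191080 at -6.65 kb rose by 0.91 (SE 0.17, adjusted p = 0.00155) and chr1:191223467-191233601 at -45.20 kb by 0.87 (SE 0.14, adjusted p = 0.000628). The peak at -45.20 kb overlaps the noncoding gene D730003I15Rik. In all, 5 of 11 tested Atf3 peaks rose with IL4. With the steroids edgeR and DESeq2 called 0, and 1 had an unadjusted p under 0.05, with Dex, the peak at -6.65 kb (-0.45, SE 0.17, adjusted p = 0.157), which was lower with the block (0.0315). The strongest Atf3 peak per kb, chr1:191196471-191203963, had 186 ± 13.1 CPM in vehicle and 223 ± 17.6 with IL4 (0.26, SE 0.11, adjusted p = 0.0988, and 0.00581 with the block).

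**Figure D4:**
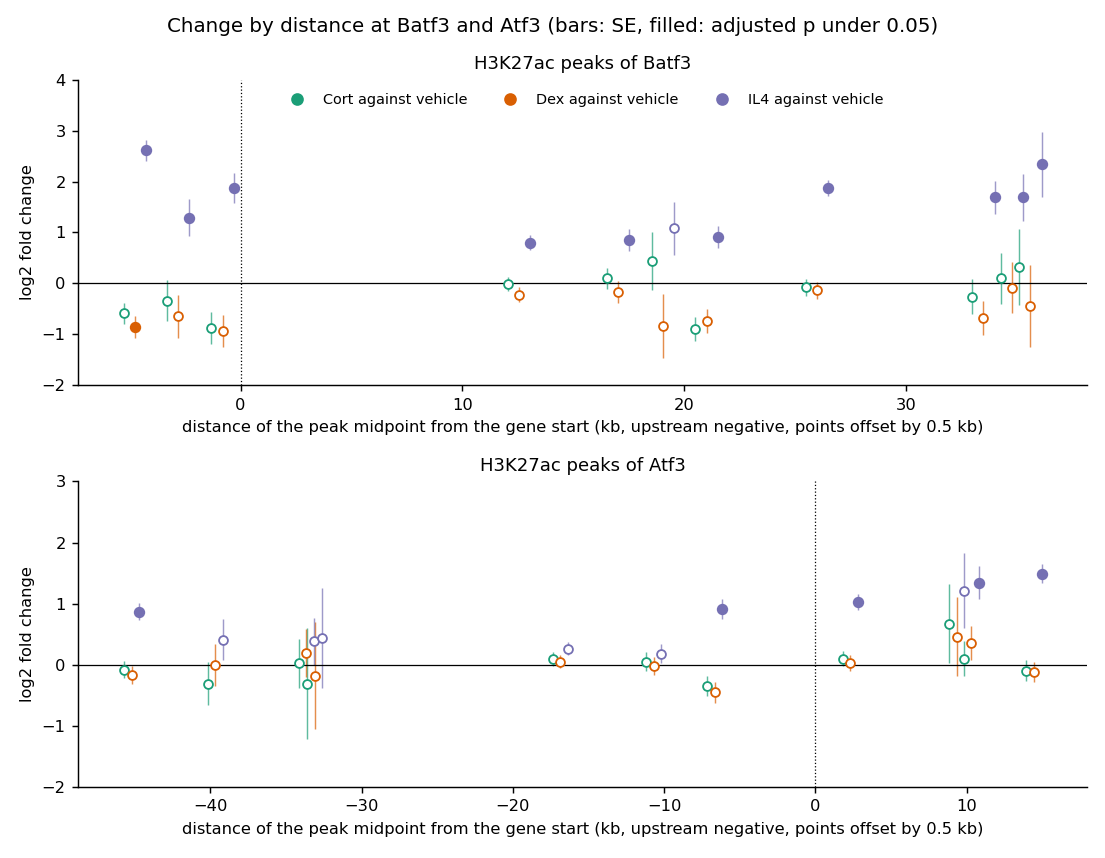
Log2 fold change of H3K27ac against vehicle with its SE (vertical axes) by distance of the peak midpoint from the gene start in kb (horizontal axes), for Batf3 above and Atf3 below, with called peaks filled. All IL4 points of Batf3 lie above 0, from 0.80 to 2.61, and the Cort and Dex points at and before its start lie below 0.

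Batf showed losses and 1 large gain. At chr12:85672926-85674788, -12.86 kb, vehicle had 3.34, 4.91 and 3.85 CPM and IL4 17.1, 16.8 and 16.9, a ratio of 4.2 (log2 2.06, SE 0.25, adjusted p = 9.01e-05). The groups were far apart, and Cort (-0.29, SE 0.27) and Dex (-0.42, SE 0.27) were not called. With noncoding genes included, the nearest gene to this peak is Gm33312, at 10032 bp, against 11932 bp to Batf. Within the gene, chr12:85701668-85702452 fell with IL4 from 2.35, 3.60 and 2.61 to 0.739, 0.972 and 0.406 CPM (-2.03, SE 0.44, adjusted p = 0.00391). Past its end, chr12:85709695-85711855 fell from 12.4, 24.2 and 16.3 to 7.39, 9.48 and 9.81 CPM (-0.98, SE 0.32, adjusted p = 0.0363). That call ended without vehicle replicate 2 (0.16) or 3 (0.0633) or any of the 3 IL4 libraries (0.117, 0.0712 and 0.0761). The strongest peak, chr12:85702568-85706758, had -0.46 with IL4 (SE 0.25, adjusted p = 0.193, and 0.00365 with the block). The start-site peak, chr12:85686254-85687686, had 7.12 ± 1.58 CPM in vehicle, 10.1 ± 3.12 with Cort, 11.4 ± 1.55 with Dex and 6.30 ± 0.656 with IL4 (SD, n = 3), and its steroid changes of 0.53 (SE 0.24, adjusted p = 0.352) and 0.68 (SE 0.24, adjusted p = 0.126) were called only with the block (0.0446 and 0.00451). Maff, the small Maf, had 1 call among its 3 peaks. The peak chr15:79354290-79355389, inside the gene, rose with IL4 from 4.35 ± 0.302 to 7.86 ± 1.69 CPM (0.85, SE 0.21, adjusted p = 0.00915, and 0.0579 without IL4 replicate 3).

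**Figure D5:**
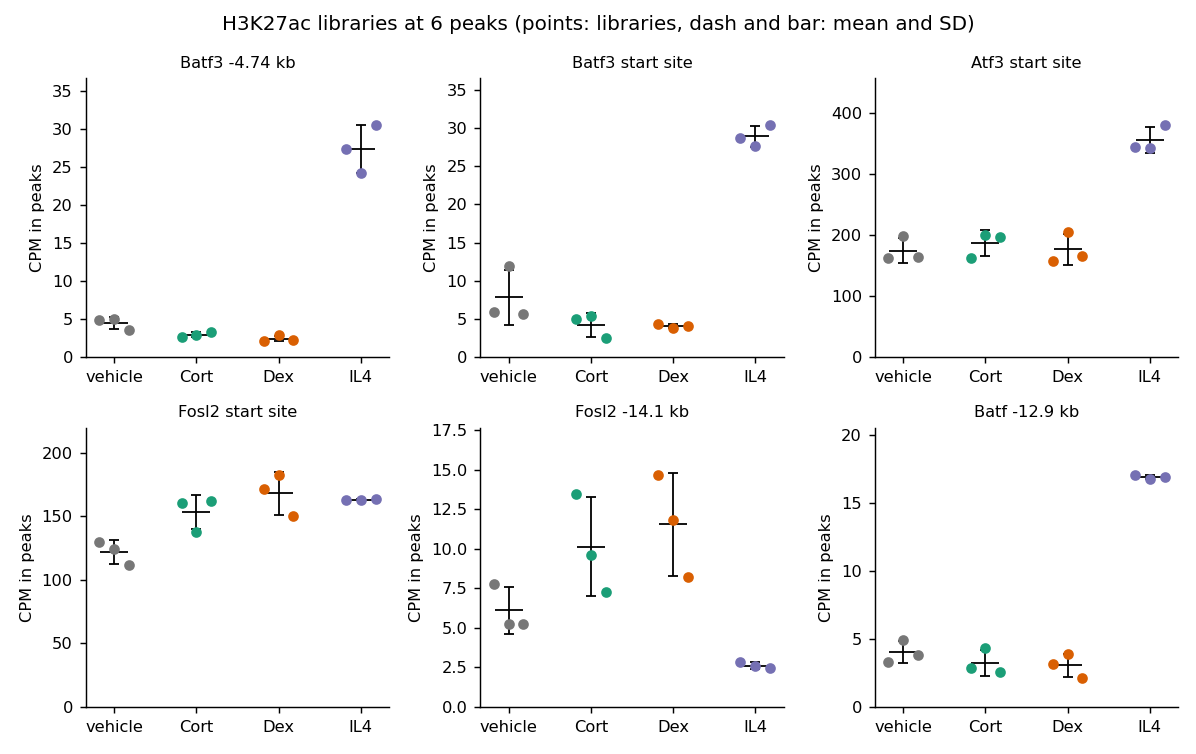
H3K27ac CPM in peaks (vertical axes) for each library of the 4 treatment groups (horizontal axes) at 6 peaks of Batf3, Atf3, Fosl2 and Batf, with the mean and SD. IL4 points lie above all others at Batf3, at the Atf3 start and at Batf, and below all others at the Fosl2 peak at -14.1 kb.

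The levels of other cell type markers moved in part with the same groups. The summed H3K27ac at the lymphoid list was 211 to 277 CPM in vehicle, 171 to 214 with Cort, 159 to 194 with Dex and 135 to 194 with IL4, and at the erythroid and megakaryocyte list 72.4 to 77.9 in vehicle and 38.4 to 45.2 with IL4. The neutrophil list had 28.8 to 36.4 and 31.9 to 37.6, and the mast cell or basophil list 5.15 to 5.57 and 5.05 to 6.40. Their part in the changes at the AP-1 genes was not tested.

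The GR peaks at the other AP-1 genes were not called with any treatment in the fit of all GR libraries. At Atf3, chr1:191230594-191230940 had 0.67 with Cort (SE 0.31, adjusted p = 0.127) and 0.38 with Dex (SE 0.31). In batch 1 alone its values were 1.4 (adjusted p = 0.0164) and 1.16 (0.0417), both called. In batch 2 alone they were 0.1 and -0.22, not called. The other Atf3 peak, chr1:191197937-191198166, had 0.51 and 0.47 (SE 0.34 each). With total-count scaling both peaks were called with Cort and Dex (0.0171 and 0.0195 for the former, 0.0207 and 0.00938 for the latter). At Fosl2, chr5:32112681-32112850 had 0.16 and 0.12 (SE 0.42 each), with signs that changed with the processing (-0.43 and -0.31 in batch 1 alone, among others). At Batf, chr12:85710745-85710852 had -0.13 and 0.15 (SE 0.58 each), whose signs also changed with the processing (0.61 for Cort with total-count scaling, and -0.07 for Dex without vehicle replicate 4, among others). All 9 AP-1 GR peaks overlapped an H3K27ac peak, where 52.9% of all GR peaks did, and 8 of the 85 H3K27ac peaks (9.41%) overlapped a GR peak, against 6.18% of all. Of all GR peaks 82.6% had a protein-coding gene within 50 kb, as the AP-1 peaks do by rule.

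The steroids were also set against IL4 directly. Cort against IL4 had 11 AP-1 peaks higher and 28 lower, where 11.3% and 13.7% of all peaks were, and Dex against IL4 had 14 higher and 28 lower, against 12.1% and 14.6%. At the Fos peak at 49.98 kb the values were 2.40 (SE 0.17, adjusted p = 1.35e-06) for Cort and 2.48 (SE 0.17, adjusted p = 9e-07) for Dex. At the Batf3 peak at -4.74 kb they were -3.2 (SE 0.21, adjusted p = 1.01e-06) and -3.47 (SE 0.21, adjusted p = 5.55e-07). The Fos peak thus carried more acetylation with either steroid and the Batf3 peak more with IL4. At the Fosl2 start site, called with both Dex and IL4, Dex against IL4 was 0.05 (SE 0.12, adjusted p = 0.811). Between Dex and Cort edgeR called 0 of the 82 H3K27ac and 0 of the 8 GR peaks, none with an unadjusted p under 0.05, and 0% of all peaks in either assay; DESeq2 called 0 too. The doses differed, and at the Fos peak at 49.98 kb Dex minus Cort was 0.08 (SE 0.16).

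By position, 3 of the 8 peaks covering a start site rose with IL4, at Batf3, Atf3 and Fosl2, and 0 fell. Of the 8 others with a midpoint within 5 kb of the start 4 rose and 1 fell, and of 66 tested peaks farther out 20 rose and 6 fell. Cort calls in these 3 classes were 0, 0 and 2, all higher, and with Dex 1 peak covering a start rose, 1 within 5 kb fell and 3 farther out rose. Of the 82 tested peaks, 66 lay farther out than 5 kb. Shares of all peaks by position were not counted, so these counts describe the AP-1 peaks alone.

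Genes that act with or upstream of these factors were counted the same way, against the shares of all peaks given above. Of 99 tested H3K27ac peaks of other basic leucine zipper genes 9 rose with Cort and 0 fell, 12 rose and 1 fell with Dex, and 9 rose and 12 fell with IL4. Jdp2, which encodes a Jun dimerization protein and lies between Fos and Batf, had 6 of 12 peaks higher with Cort and 7 with Dex, led by chr12:85597475-85601129 with 25.5 ± 1.79 CPM in vehicle, 70.2 ± 4.44 with Cort and 70.5 ± 7.26 with Dex (log2 1.46 and 1.47, SE 0.12, adjusted p = 5.37e-05 and 2.67e-05). Bach2, a repressor that pairs with small Maf proteins, had 3 and 5 of 25 higher, and its 1 tested GR peak rose with Cort (1.86, SE 0.34, adjusted p = 0.0022) and Dex (2.09, SE 0.34, adjusted p = 0.000657). The median changes of this list were 0.13, 0.14 and 0.10 for Cort, Dex and IL4, and the block raised the counts for Cort to 17 higher and 2 lower and those for Dex to 21 and 4.

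At the MAP kinases, which act upstream of AP-1, more peaks fell than rose with IL4. Of 114 tested peaks edgeR and DESeq2 called 0 with Cort (11 with an unadjusted p under 0.05, and 5 higher and 5 lower with the block), 1 fell with Dex (12 higher and 3 lower with the block), and 7 rose and 27 fell with IL4. The medians were 0.08, 0.10 and -0.31. Map3k5, a stress kinase, had 10 of its 17 peaks lower with IL4, and a Map3k1 peak fell with Dex (-1.21, SE 0.29, adjusted p = 0.0279) and IL4 (-2.54, SE 0.31, adjusted p = 8.67e-05). Of 47 peaks of MAP kinase phosphatases, which switch these kinases off, 2 rose with Cort and 2 with Dex, all at Dusp1, and 1 fell with Dex, at Dusp5. With IL4 6 rose and 8 fell, with 4 of 5 Dusp4 peaks higher and 3 of 7 Dusp6 peaks lower, and the medians of this list were -0.12, 0.03 and -0.08. With the block the counts were 3 higher and 3 lower with Cort, 3 and 4 with Dex and 9 and 15 with IL4. Both tested GR peaks of Dusp1 rose with each steroid, the larger by 1.80 (SE 0.38, adjusted p = 0.00453) and 2.14 (SE 0.37, adjusted p = 0.00104).

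Of 121 peaks of serum response factor, its partners and other immediate early genes edgeR called 0 with Cort (12 with an unadjusted p under 0.05, 2 by DESeq2), 2 rose and 2 fell with Dex, and 27 rose and 13 fell with IL4, with medians of -0.02, -0.07 and 0.19. With the block 6 were higher and 6 lower with Cort, 13 and 11 with Dex and 42 and 23 with IL4. Mrtfb, a coactivator of serum response factor, had 13 of 20 higher with IL4, Egr2 3 of 5 and Nr4a1 5 of 8 lower. The 1 tested GR peak of Nr4a1 rose by 2.34 (SE 0.41) with Cort and 3.14 (SE 0.39) with Dex. Irf4 and Irf8, the partners of Batf proteins, had 20 peaks, of which edgeR called 0 with Cort (2 with an unadjusted p under 0.05, 1 by DESeq2, 2 higher with the block), 1 rose with Dex (2 with the block), and 4 rose and 2 fell with IL4. The medians were 0.07, 0.13 and 0.06. An Irf4 peak rose by 2.14 with IL4 (SE 0.38, adjusted p = 0.00114), and 1 Irf8 peak rose with Dex (0.94, SE 0.21, adjusted p = 0.0192) and fell with IL4 (-1.32, SE 0.22, adjusted p = 0.0008). Of 128 peaks of genes with known AP-1 sites edgeR called 0 with Cort (13 with an unadjusted p under 0.05, 2 by DESeq2), 3 rose and 1 fell with Dex, and 33 rose and 7 fell with IL4, with medians of -0.04, -0.01 and 0.41. With the block 6 were higher and 5 lower with Cort, 12 and 7 with Dex and 46 and 15 with IL4. Without the block, Mmp12, a macrophage elastase, had all 9 peaks higher with IL4, and the adhesion gene Cd44 12 of 48.

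In the GR libraries, genes with known AP-1 sites had 18 tested peaks, of which 0 rose and 3 fell with Cort and 0 rose and 2 fell with Dex, where 14.8% and 15.6% of all GR peaks fell. Their median log2 changes were -0.72 and -0.52, against 0.17 and -0.12 over all GR peaks. The Cd44 peak chr2:102829339-102829489 fell by 0.88 on the log2 scale with Cort (SE 0.28, adjusted p = 0.0318, and 0.0734 with the block) and by 1.28 with Dex (SE 0.29, adjusted p = 0.00376). The other basic leucine zipper genes had 5 tested GR peaks with 1 higher with each steroid, the phosphatases 5 with 2 higher with each, and the serum response factor list 5 with 1 higher with Cort and 2 with Dex, none lower. The MAP kinases had 5, with 0 called by edgeR or DESeq2 and 0 with an unadjusted p under 0.05, and Irf4 and Irf8 had none tested. With the block Cort had 2 of the AP-1-site peaks lower and Dex 1 of the phosphatase peaks higher, and with IL4 edgeR and DESeq2 called 0 in each list, with at most 2 peaks of a list at an unadjusted p under 0.05.

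The Fos peak at 49.98 kb, which had the smallest p of the AP-1 peaks for both steroids, had the most similar profile over the 12 H3K27ac libraries to peaks of Dock10, Cttnbp2nl and Atp8b4, with Pearson r = 0.994, 0.994 and 0.992 among 29941 peaks of at least median abundance. The Batf3 peak at -4.74 kb, which had it for IL4, was nearest to peaks of Tbxas1, Alas1 and Atp6v0a1, with r = 0.994, 0.994 and 0.987. These libraries share the treatments and the scaling, and the values describe likeness alone.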

How the data were processed

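GR and H3K27ac chromatin of mouse macrophages was profiled in 27 libraries over vehicle, Cort, Dex and IL4; an input sample was not analysed here. The deposited values are read counts per peak, and the authors' counting used featureCounts on mm10 after fastp, Bowtie2, SAMtools and MACS2, per the submitters' processing notes; parameters are not given in the sources used here. GR peaks had a median length of 114 bp and H3K27ac peaks one of 1013 bp. Columns headed C were taken as vehicle because no other group matched them.

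Counts were scaled by TMM, low-count peaks were dropped (filterByExpr), and edgeR 4.0.16 (R 4.3.3) fitted all groups of an assay with the quasi-likelihood test, with batch as a term for GR. This left 59881 H3K27ac and 5183 GR peaks. Every p is two-sided and Benjamini-Hochberg adjusted over all tested peaks of an assay, and a peak was called at an adjusted p under 0.05. The scripts were tested on simulated counts. The members and gene lists were chosen with earlier results of these data known. Peaks were assigned by distance to RefSeq gene spans of GRCm38.p6, which shares coordinates with mm10. Named peaks were the strongest peak at each gene, up to 6 called H3K27ac peaks per gene by p, and every tested GR peak. Peaks near a gene do not measure its transcript. The presence of a peak at 1 lymphoid marker gene is not reported here.

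Same-numbered H3K27ac libraries deviated together from their group means (r = 0.268 to 0.678 in 18 pairs, against -0.449 to 0.0406 in 36 other pairs), so the numbers were taken to pair them, and a fit with the replicate number as a block was run beside the fit without it. Alternatives were DESeq2 1.42.0, other scaling, no filter, 2 groups alone, single batches, leaving out each library, and other assignment rules.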

Additional observations from a re-analysis of the deposited data

Results flagged for a closer look

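The GR peaks chr1:191197937-191198166 near Atf3 and chr5:32112681-32112850 near Fosl2 each had vehicle replicate 1 above the other vehicle libraries after scaling, at 11.3 CPM. The others had 6.35 to 6.69 CPM at the Atf3 peak and 5.17 to 5.72 at the Fosl2 peak. Each value stood on 8 counts. In vehicle replicates 1 to 4 the raw counts were 8, 6, 10 and 5 at the Atf3 peak. At the Fosl2 peak they were 8, 5, 9 and 4, so replicate 1 was not the highest before scaling at either. Among 27 groups of 4 libraries examined, chance alone flags about 1 in 20.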

How the results depend on the processing

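Direction was followed for the named peaks against vehicle. None of their calls changed direction under any alternative, while uncalled values near 0 did. Among these was GR with Dex at the Fos peak at -18.75 kb (-0.09, and 0.90 with total-count scaling). With the replicate block the called AP-1 peaks of H3K27ac went from 2 to 13 for Cort, from 5 to 19 for Dex, from 34 to 49 for IL4, from 39 to 52 for Cort against IL4 and from 42 to 53 for Dex against IL4, and over all peaks from 929 to 7531, 3138 to 12131 and 16538 to 26057 against vehicle. Over all peaks they went from 14942 to 24180 for Cort against IL4 and from 15974 to 25561 for Dex against IL4. Leaving out 1 library gave 1 to 2 calls for Cort (1 without Cort replicate 1), 2 to 6 for Dex (2 without vehicle replicate 2, 3 without vehicle replicate 3 or Dex replicate 1), 23 to 32 for IL4, 26 to 35 for Cort against IL4 and 31 to 37 for Dex against IL4. Over all peaks these fits called 328 to 1073, 1185 to 4168, 11294 to 14712, 10236 to 12834 and 11054 to 14857, in the same order. The 1 Cort call stood beside 438 over all peaks, and the 2 Dex calls beside 1578. DESeq2 called 4 for Cort (1912 over all peaks), and fits of 2 groups alone called 1 for Cort (385) and 3 for Dex (1976).

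With genes assigned within 10 kb the counts were 0, 3, 18, 18 and 24 for Cort, Dex, IL4, Cort against IL4 and Dex against IL4, and with noncoding genes considered 0, 2, 15, 15 and 20; both hold fewer peaks by construction. A log2 change of at least 1 left 3 for Dex and 21 for IL4. Using only peaks marked TRUE in a deposited column whose criterion is not stated, an alternative chosen after seeing the data, gave 25 for Cort against IL4 (12021 over all peaks).

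For GR, of 2 calls each with Cort and Dex, 1 was left with median-of-ratios scaling, DESeq2, marked peaks or noncoding genes considered, and for Dex without a batch term. The call left was at the Fos peak at -5 kb with noncoding genes considered, and at the Fos peak at -8.82 kb under the others. Total-count scaling gave 5 for both, where 1580 (Cort) and 1979 (Dex) of all GR peaks were called. Batch 2 alone gave 0 for both, and 0 over all GR peaks as well. Leaving out 1 library gave 1 to 2 for each (1011 to 1763 over all GR peaks for Cort and 1270 to 1592 for Dex). It gave 1 without vehicle replicate 2 or 4 for both, without Cort replicate 2 or 4, and without Dex replicate 1, 2 or 4. Without vehicle replicate 3 the call at the Fos peak at -5 kb ended for both. The count stayed at 2 there because another AP-1 GR peak was called. The cause of these changes was not tested. Same-numbered GR libraries did not deviate together (r = -0.463 to 0.174 in 12 pairs), and the replicate block gave 2 calls with each steroid. No paired analysis was possible because of differing numbers for GR with IL4: its replicates 1 to 3 are all in batch 2, where vehicle has 3 and 4. Over all GR peaks Cort had 1431 calls, 753 without the filter and 961 without a batch term, and IL4 had 0, and 4 with DESeq2. Low counts limit GR: its libraries held 55958 to 415731 counts outside the top 1% of peaks.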
